A study of Homo sapiens with 6 samples.

Results

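NFE2L1, DDI2, NGLY1, UBB, VCP, NPLOC4, ZFAND2A, ZFAND2B and ZFAND5 are 9 genes grouped here by 2 linked tasks, among others that they serve. The tasks are the delivery of ubiquitin-marked proteins to the proteasome and the renewal of the proteasome itself. They were taken by name, with no threshold on their values but with earlier results of these data known. All 9 are among the 11048 genes listed in each of 6 RNA sequencing libraries. The libraries came from MM1.S, a human multiple myeloma cell line, after 6 h with the vehicle DMSO, with 3 µM CCF642 or with 3 µM CCF642-34, an analogue of CCF642. Both compounds were developed as inhibitors of protein disulfide isomerases. Each group has 2 libraries. All of them come from the same line, and nothing in the labels says that the libraries of a group are separate cultures, so the p values below measure only the spread between these libraries, which may be technical.

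NFE2L1 (also NRF1) is a transcription factor that is made in the membrane of the endoplasmic reticulum and is normally degraded. VCP (p97), an ATPase that pulls proteins out of membranes and complexes, extracts it, NGLY1 removes its N-glycans and DDI2 cuts it, and the released factor raises transcription of the proteasome genes when proteasome capacity falls short. UBB encodes a chain of ubiquitin repeats and is a stress-inducible source of ubiquitin. NPLOC4 is the VCP cofactor that, with UFD1, binds ubiquitin chains, and the ZFAND proteins are AN1-type zinc finger proteins that act near VCP and the proteasome. Plasma cells, from which myeloma arises, secrete large amounts of antibody and rely on this disposal route.

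With either compound, 8 of the 9 genes rose and DDI2 fell. NFE2L1, ZFAND2A and ZFAND5 at least doubled, UBB rose by about 0.8 to 0.9 on the log2 scale, and VCP and NPLOC4 rose by about 0.3. The values are CPM, the reads on a gene for every 1000000 reads of its library, and the fold changes are differences in log2(CPM + 1) after TMM scaling (edgeR's trimmed mean of M-values), tested with limma over all listed genes and adjusted by the Benjamini-Hochberg method. A gene was called where this adjusted p was below 0.05. With CCF642-34, 57.6% of all genes were called against DMSO, 29.7% higher and 27.9% lower, and 2.59% were called and at least 2-fold higher. With CCF642 the shares were 63.1%, 31.8%, 31.3% and 4.5%. Against these shares, 9 of 9 members were called with each compound, 8 higher and 1 lower, and 3 of 9 were at least 2-fold higher. The members were chosen with earlier results known, so these counts and the medians that follow are a description, not independent evidence. The median log2 fold change of the 9 genes was 0.67 with CCF642-34 and 0.68 with CCF642, beside 0.0067 and -0.0066 over all genes. Both compounds were compared with the same DMSO libraries. In bulk samples of this kind, fewer cells of a type and less RNA per cell cannot be told apart.

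**Figure D1:**
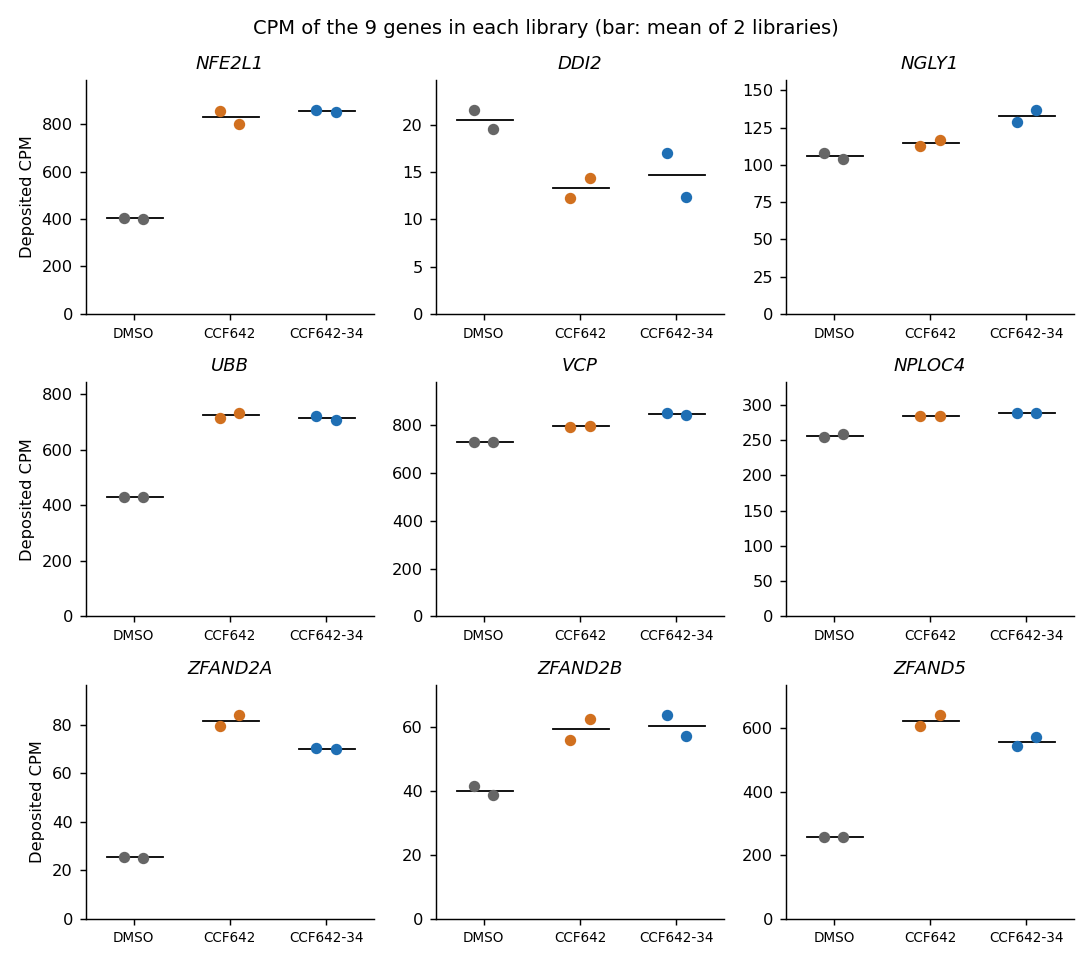
Deposited CPM (linear axis from 0) of the 9 genes in each of the 6 libraries, 2 points per group with a bar at their mean. In each panel both libraries of each compound lie on 1 side of both DMSO libraries, below them for DDI2 and above them for the other 8 genes. The share of all genes separated in this way was not counted, so this describes the panels only.

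Libraries held 20567313 to 28459677 reads, totals inferred from the CPM as those at which all values are whole reads, of which 99.9% fell on the listed genes, and every listed gene reached at least 1.505 CPM in some library. The replicates of DMSO, CCF642 and CCF642-34 varied more than counting error predicts, with a squared difference per gene of 2.29, 4.65 and 4.04 times that prediction. The reads behind the members ran from 253, for DDI2, to 24444, for NFE2L1. Counting error (the square root of the reads) was therefore at most 6.29% of a value, and it covers counting only. Of the plasma cell markers 10 were listed, SDC1, TNFRSF17, IRF4, PRDM1, XBP1, CD38, SLAMF7, MZB1, JCHAIN and POU2AF1. Their summed level was 9904 to 10003 CPM with DMSO, 7020 to 7054 CPM with CCF642 and 7866 to 7911 CPM with CCF642-34. Of 10 markers of other cells, 5 (CD3E, HBB, COL1A1, EPCAM and PECAM1) were listed, with sums of 9.87 to 10.7, 18.4 and 13.9 to 14.0 CPM in the same order. JCHAIN led the plasma cell sum in every library, and COL1A1 led the other sum with CCF642 but not with DMSO. JCHAIN had 4316 to 4321 CPM with DMSO, 1791.5 to 1875 CPM with CCF642 and 2339 to 2357 CPM with CCF642-34. Without it the plasma cell sum was 5588 to 5682, 5179 to 5229 and 5510 to 5572 CPM. Single markers within that rest varied more than their sum. Over all libraries SDC1 ran from 239 to 870 CPM, IRF4 from 657 to 1358 and TNFRSF17 from 71.2 to 170. By contrast, XBP1 ran only from 1311 to 1391 CPM. COL1A1 had 1.09 to 1.495, 8.99 to 10.5 and 2.74 to 3.53 CPM. Without it the other sum was 8.79 to 9.16, 7.83 to 9.38 and 10.5 to 11.2 CPM in the same order. The CCF642-34 libraries thus remained above the DMSO libraries without COL1A1. The part of these markers in the results was not tested.

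The transcription factor NFE2L1 more than doubled. Its gene lies at chr17:48048329-48061487 on the plus strand of GRCh38 (GENCODE 29), the build of all gene positions given here. Its level was 404 and 402 CPM with DMSO, 856.5 and 801 CPM with CCF642 and 859 and 851 CPM with CCF642-34. All 4 treated libraries were far above the DMSO libraries, and the libraries of the 2 compounds overlapped. The log2 fold change was 1.17 (SE 0.0376, adjusted p = 2.39e-30) with CCF642-34 and 1.17 (adjusted p = 1.66e-30) with CCF642 in limma, ranks 178 and 348 among the 11048 genes from the largest increase. Between the compounds it differed by 0.0019 (95% confidence interval -0.074 to 0.078), and by 0.046 with scaling by library size alone.

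NFE2L1 has a promoter entry in RefSeq on GRCh38.p14 that starts before its first annotated exon. Its sequence is shown because it is dense in CCAAT boxes, the sites of the general factor NF-Y. The stretch runs from 250 to 31 bases before the start, chr17:48048109-48048328 on the plus strand, and capitals mark CCAAT on either strand.
NFE2L1: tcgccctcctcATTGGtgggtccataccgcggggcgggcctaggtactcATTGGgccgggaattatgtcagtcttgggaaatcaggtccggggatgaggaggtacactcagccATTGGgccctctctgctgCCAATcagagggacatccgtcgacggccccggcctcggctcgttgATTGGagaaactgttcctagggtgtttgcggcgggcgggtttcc
It holds 5 matches, while the other RefSeq entry of NFE2L1, chr17:48048531-48048830, holds 0. Of the 35116 promoters in the table, each of 300 bases, 34.6% hold at least 1 such match and 0.359% hold 5 or more. The promoter entry of VCP also holds 5. Entries were found for all 9 members (15 in all), and a match is a description of the letters only.

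The enzymes that process NFE2L1 did not move together. Their genes lie at chr1:15617500-15669044 on the plus strand (DDI2) and chr3:25718944-25790039 on the minus strand (NGLY1). DDI2, the aspartyl protease that cuts it, was the lowest of the members and had 21.5 and 19.5 CPM with DMSO, 12.3 and 14.3 CPM with CCF642 and 17.0 and 12.4 CPM with CCF642-34. All treated libraries were below both DMSO libraries, and those of CCF642-34 were the farthest apart. The log2 fold change was -0.39 (SE 0.118, limma adjusted p = 0.0047) with CCF642-34 and -0.46 (adjusted p = 6.68e-04) with CCF642. The first of these depended on single libraries. In limma it was -0.17 (adjusted p = 0.323) without CCF642-34 replicate 2, -0.60 without CCF642-34 replicate 1 and -0.32 (adjusted p = 0.0664) without DMSO replicate 1, within a range of adjusted p from 0.000503 to 0.323 over the alternatives. DDI2 shares 1854 exonic bases, 15.3% of its exons, with RSC1A1 on the same strand. RSC1A1 had 11.4 and 9.72 CPM with DMSO, 6.76 and 8.90 CPM with CCF642 and 7.20 and 7.88 CPM with CCF642-34. RSC1A1 was lower in the treated libraries too, but with shared exons it is not a separate observation from DDI2. In limma its log2 fold change was -0.35 (adjusted p = 0.0271) with CCF642-34 and -0.28 (adjusted p = 0.0797, not called) with CCF642. The first call was lost in the DESeq2 Wald test (adjusted p = 0.0736) and in a gene-wise linear model (adjusted p = 0.213). It was also lost without DMSO replicate 1 (-0.25), CCF642-34 replicate 1 (-0.30) or CCF642-34 replicate 2 (-0.41). How reads were divided between DDI2 and RSC1A1 is not stated.

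NGLY1, the cytosolic glycanase, rose modestly. It had 108 and 104 CPM with DMSO, 113 and 117 CPM with CCF642 and 128 and 137 CPM with CCF642-34. The 3 groups did not overlap and CCF642-34 was the highest. The log2 fold change was 0.41 (SE 0.0522, limma adjusted p = 3.44e-09) with CCF642-34 and 0.25 (adjusted p = 6.03e-05) with CCF642. With scaling by library size alone the second was 0.11 (limma adjusted p = 0.052, the highest over its alternatives, whose lowest was 1.23e-05). That scaling moved the median of all genes by -0.124 with CCF642 and -0.085 with CCF642-34, so the rise of NGLY1 with CCF642 is a rise relative to the other genes. NGLY1 shares 536 exonic bases, 6.44% of its exons, with OXSM on the opposite strand, and since the counting is not stated to use strand, reads of overlapping genes cannot be told apart.

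UBB, the ubiquitin gene among the members, rose with either compound. It lies at chr17:16380798-16382745, on the plus strand. UBB had 429.9 and 429.9 CPM with DMSO, 714 and 734 CPM with CCF642 and 720.5 and 706.5 CPM with CCF642-34. The DMSO libraries differed by less than the counting error of 1.04%, and the libraries of the compounds overlapped. The log2 fold change of UBB was 0.82 (SE 0.0373, limma adjusted p = 3.93e-24) with CCF642-34 and 0.88 (adjusted p = 1.08e-25) with CCF642. The direct difference between the compounds was -0.065 (95% confidence interval -0.14 to 0.010, limma adjusted p = 0.183). Ubiquitin genes share near-identical coding repeats, so the division of reads among them is uncertain, and UBB shares 461 exonic bases, 28.4% of its exons, with an antisense gene.

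The UBB entry holds a match to TGACNNNGC, the core of the antioxidant response element that NFE2L1 and NFE2L2 bind with small MAF proteins. It is shown, with its match in capitals, as 30 bases that lie within annotated exon 11 to 40 bases after the start of the outer of 2 RefSeq entries (GRCh38.p14, chr17:16381300-16381329, plus strand).
UBB: ggagggcgaggTGACGCGGCgctgggcctt
On either strand, 13.4% of all promoters in the table hold this match (14.7% of those of listed genes). Members with it in at least 1 entry were UBB (the same site in its 2 overlapping entries), VCP, ZFAND2A and ZFAND5 (only in its outermost entry). Those without it were NFE2L1, DDI2, NGLY1, NPLOC4 and ZFAND2B. The shares count single entries and the members count genes, some with several entries, so the 2 are not directly comparable.

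VCP and its cofactor NPLOC4 rose little and with small spread. Both genes are on minus strands, at chr9:35056064-35073249 (VCP) and chr17:81556887-81648465 (NPLOC4). VCP had 729 and 732 CPM with DMSO, 793 and 798 CPM with CCF642 and 853 and 842 CPM with CCF642-34. NPLOC4 had 255 and 258 CPM with DMSO, 284 and 284 CPM with CCF642 and 288 and 289 CPM with CCF642-34. In neither gene did any group overlap another. The log2 fold change of VCP was 0.30 (SE 0.0358, limma adjusted p = 4.80e-10) with CCF642-34 and 0.26 (adjusted p = 2.28e-08) with CCF642. That of NPLOC4 was 0.26 (SE 0.0416, limma adjusted p = 6.50e-07) and 0.28 (adjusted p = 8.32e-08). Scaling by library size alone lowered the CCF642 values to 0.12 for VCP and 0.15 for NPLOC4 and the CCF642-34 value of NPLOC4 to 0.17, all still called.

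ZFAND2A had the largest log2 fold change of the members with either compound, followed by ZFAND5 and NFE2L1, which with CCF642-34 did not differ beyond their errors. ZFAND2A lies at chr7:1152071-1160759 and ZFAND5 at chr9:72351425-72365235, both on the minus strand, and ZFAND2B at chr2:219195237-219209651 on the plus strand. ZFAND2A (AIRAP), an arsenite-inducible regulator that binds the proteasome, had 25.6 and 25.2 CPM with DMSO, 79.4 and 84.0 CPM with CCF642 and 70.5 and 70.0 CPM with CCF642-34. Its treated libraries were all well above DMSO, and those of CCF642 were the highest. The log2 fold change was 1.52 (SE 0.0666, limma adjusted p = 9.43e-25) with CCF642-34 and 1.78 (adjusted p = 9.52e-28) with CCF642. ZFAND5, an activator of the proteasome, showed the same order. Its level was 258 and 258 CPM with DMSO, 605 and 641 CPM with CCF642 and 543 and 571 CPM with CCF642-34, without overlap between the groups. Its log2 fold change was 1.20 (95% confidence interval 1.12 to 1.28, limma adjusted p = 1.40e-29) with CCF642-34 and 1.40 (adjusted p = 1.23e-32) with CCF642. ZFAND2B (AIRAPL), the paralogue of ZFAND2A that is tethered to the endoplasmic reticulum membrane, rose less. It had 41.5 and 38.8 CPM with DMSO, 56.1 and 62.7 CPM with CCF642 and 63.8 and 57.2 CPM with CCF642-34, and the libraries of the compounds overlapped. Its log2 fold change was 0.67 (SE 0.0711, limma adjusted p = 3.13e-11) with CCF642-34 and 0.68 (adjusted p = 1.04e-11) with CCF642.

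The promoter entries of the 3 ZFAND genes are shown for the motifs they hold. Capitals mark, in ZFAND2A, the antioxidant element core and then the pair of heat shock units TTCNNGAA (or GAANNTTC) to which HSF1 binds, in ZFAND5 the antioxidant core in both orientations, and in ZFAND2B the cyclic AMP response element TGACGTCA.
ZFAND2A: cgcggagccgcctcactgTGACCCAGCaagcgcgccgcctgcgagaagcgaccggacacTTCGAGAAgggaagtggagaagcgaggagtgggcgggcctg
ZFAND5: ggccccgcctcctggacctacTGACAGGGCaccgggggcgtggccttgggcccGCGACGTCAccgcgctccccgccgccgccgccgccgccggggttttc
ZFAND2B: gccctgcgggaTGACGTCAgcgcgccgcgc
In GRCh38.p14 these are chr7:1160327-1160426 (minus strand, 230 to 131 bases before the RefSeq start), chr9:72365276-72365375 (minus strand, 167 to 68 bases before the start of the outermost of 3 entries) and chr2:219206767-219206796 (plus strand, across the start). The ZFAND2A stretch lies within an annotated exon of an alternative transcript. The heat shock pair was found in ZFAND2A alone of the members, and 13.5% of all promoters hold it (10.4% of those of listed genes). The cyclic AMP element was found in ZFAND2B alone, against 1.85% of all promoters (2.80% of those of listed genes). The element TGATGNAA, bound by C/EBP and ATF dimers, was in no member and in 3.62% of all promoters (2.01% of those of listed genes). The searches used both strands, and in the entries of the members no match of one motif overlapped a match of another.

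**Figure D2:**
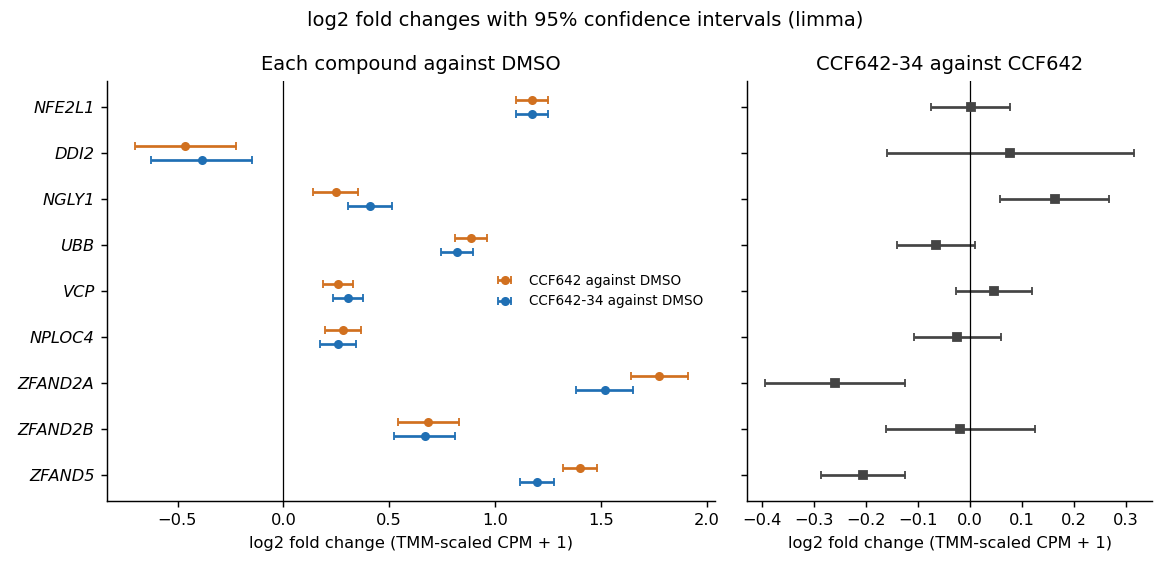
log2 fold changes of the 9 genes (points) with 95% confidence intervals (bars) from limma, each compound against DMSO on the left and CCF642-34 against CCF642 on the right, where the axis is narrower. On the left every interval lies off 0, and on the right the intervals of NGLY1, ZFAND2A and ZFAND5 do.

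The 2 compounds were compared directly at the same dose and time, as 1 pair. Of all genes, 33.4% were called in this comparison, 15.9% higher with CCF642-34 and 17.4% lower. Of the members 3 of 9 were called, 1 higher and 2 lower, and the median of the 9 differences was -0.018, beside 0.0093 over all genes. ZFAND2A was lower with CCF642-34 by a log2 difference of -0.26 (95% confidence interval -0.39 to -0.12, limma adjusted p = 0.00204), and ZFAND5 by -0.21 (-0.29 to -0.12, adjusted p = 6.92e-05). NGLY1 was higher by 0.16 (0.058 to 0.27, limma adjusted p = 0.0126). The call for NGLY1 was lost without CCF642 replicate 1 (0.13, limma adjusted p = 0.0696) and without CCF642-34 replicate 2 (0.12, adjusted p = 0.159), within a range of 0.0016 to 0.159 over its alternatives.

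For the other 6 members no difference between the compounds was called. The intervals of the log2 difference were -0.074 to 0.078 for NFE2L1, -0.14 to 0.010 for UBB, -0.025 to 0.12 for VCP and -0.11 to 0.060 for NPLOC4. They were wider for the less abundant ZFAND2B, at -0.16 to 0.13, and DDI2, at -0.16 to 0.32. A p above the threshold does not show that the compounds act alike on these genes.

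Compared per kilobase of exon (GENCODE 29, GRCh38), the level with DMSO was highest for UBB, at a mean of 265 CPM per kb, followed by VCP at 134, NFE2L1 at 69.2, ZFAND5 at 36.6, NPLOC4 at 26.8, NGLY1 at 12.7, ZFAND2B at 11.8, ZFAND2A at 11.1 and DDI2 at 1.69 CPM per kb. NGLY1, ZFAND2B and ZFAND2A were close, with libraries at 12.5 to 13.0, 11.4 to 12.2 and 11.1 to 11.2 CPM per kb. The treated order differed. With CCF642, ZFAND2A stood at 35.8 CPM per kb, above NPLOC4 at 29.7, ZFAND2B at 17.5 and NGLY1 at 13.8, while NFE2L1, at 142, was near VCP, at 146 CPM per kb. The NFE2L1 libraries (137 and 147 CPM per kb) spanned those of VCP with CCF642 (146 and 147), so their order there is not beyond the spread. With CCF642-34, ZFAND2A (30.7 to 30.9) and NPLOC4 (30.1 to 30.2) were within 1 CPM per kb of each other. The lengths are those of all annotated exons, including ones that MM1.S may not use, and so bear on the order.

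The genes closest to NFE2L1 in profile, by Euclidean distance of log2 values over the 6 libraries after centring on DMSO, were ANK2 (0.063), ETV5 (0.12) and PNPLA8 (0.13). ANK2 had only 36 to 142 reads, so the pseudocount compressed its change: with a pseudocount of 0.1 its log2 fold change with CCF642-34 was 1.56, against 1.18 for NFE2L1. For ZFAND2A they were CARS (0.169), ADAM17 (0.169) and STK40 (0.20), and for ZFAND5 C16orf72 (0.082), GFPT1 (0.090) and SH2B3 (0.12). None of them is a member or a gene of the lists below.

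The other genes of the pathway were counted in lists, chosen with earlier results of these data known. The counts are to be read beside the 29.7% of all genes called higher and 27.9% called lower with CCF642-34, and the 31.8% and 31.3% with CCF642. Most of the proteasome genes, a list that includes the textbook targets of NFE2L1 but also cap subunits and assembly chaperones, were called higher. Of the 42, 35 rose and 2 fell with CCF642-34 (median log2 fold change 0.34), and 27 rose and 6 fell with CCF642 (median 0.26). None of them reached 2-fold. PSMD12 (0.78), a lid subunit, and the base ATPase PSMC6 (0.69) rose most with CCF642-34, and with CCF642 PSMD12 (0.84) and the ATPase PSMC4 (0.73) led. PSME3, a subunit of the PA28 gamma cap, fell by 0.28 and 0.30, and the assembly chaperone PSMG4 fell by 0.67 with CCF642, or by 0.38 without CCF642 replicate 2 (-0.96 without CCF642 replicate 1). For PSMG4 the CCF642-34 value was -0.30, and its call was lost without DMSO replicate 1 (-0.28), DMSO replicate 2 (-0.32) or CCF642-34 replicate 2 (-0.16). Scaling by library size alone gave 30 higher and 5 lower with CCF642-34, and 21 and 10 with CCF642.

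Among the partners of NFE2L1 and the factors of its turnover, 7 of 12 rose and 2 fell with CCF642-34 (median 0.31), and 8 rose and 1 fell with CCF642 (median 0.41). MAFF, a small MAF protein that pairs with NFE2L1, rose most, by 2.21 and 2.53, and the related factor NFE2L2 (NRF2) rose by 1.09 and 1.46. MAFK, another small MAF, fell by 0.50 and 0.54. HCFC1, a cofactor, fell by 0.22 with CCF642-34 and had -0.07 with CCF642. Without CCF642 replicate 1, the number of these genes that fell with CCF642 was 2, and with scaling by library size alone 7 rose and 4 fell with CCF642-34, and 7 rose and 3 fell with CCF642.

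Among 8 genes of ubiquitin supply, activation and recycling, 2 rose and 0 fell with CCF642-34 in limma (median 0.047, 2 at an unadjusted p under 0.05), and 5 rose and 1 fell with CCF642 (median 0.13), so that with CCF642-34 the share called was below the 57.6% of all genes. USP14, the deubiquitinase of the proteasome, rose most, by 0.59 and 0.74. UBA6, a ubiquitin-activating enzyme, rose by 0.39 with CCF642, and USP5, which disassembles free ubiquitin chains, fell by 0.18. Without DMSO replicate 2, or without CCF642 replicate 2, 3 rose with CCF642, and with scaling by library size alone 2 rose and 2 fell with each compound.

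Of 23 further cofactors of VCP, 14 rose and 3 fell with CCF642-34 (median 0.19), and 15 rose and 1 fell with CCF642 (median 0.25). The shares called in either direction were not far above the 57.6% and 63.1% of all genes, but most of the cofactors called were higher. Over all genes the calls were nearly balanced, with 29.7% higher and 27.9% lower with CCF642-34, and 31.8% and 31.3% with CCF642. PLAA, a ubiquitin-binding partner, rose by 0.92 and 1.02, and DERL2, a membrane protein of endoplasmic reticulum-associated degradation, rose by 0.89 and 0.76. SVIP, a small inhibitor of that degradation, fell by 0.34 and 0.59. Without DMSO replicate 2, or without CCF642-34 replicate 1, 1 of the cofactors fell with CCF642-34, and with scaling by library size alone 9 rose and 4 fell with CCF642. Of the 4 other ZFAND genes, 3 rose with CCF642-34 (median 0.51), while with CCF642 2 rose and 1 fell (median 0.43). ZFAND1 rose by 0.92 and 0.77 and ZFAND3 by 0.73 and 0.75. ZFAND4 was the one that fell, by 0.31, a call lost without DMSO replicate 1 (-0.17) or CCF642 replicate 1 (-0.20), while with CCF642-34 it was called lower without DMSO replicate 2 (-0.39) or CCF642 replicate 1 (-0.25).

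The heat shock genes, textbook targets of HSF1, were listed beside the members because ZFAND2A and UBB are also known as heat-inducible. All 16 listed rose with CCF642 (median 0.83), and 14 rose with CCF642-34 (median 0.29). BAG3, a co-chaperone, rose by 1.18 with CCF642-34 and 1.95 with CCF642, and HSPB1 by 1.06 and 1.49. These were the only 2 of the list called at least 2-fold higher with CCF642-34, against 6 with CCF642. With CCF642-34, 2 genes of the list were not called, HSPE1 (-0.057, the lowest value) and HSPA1B (-0.022). With CCF642 these rose by 0.66 and 1.16. Scaling by library size alone gave 12 higher and 1 lower with CCF642-34, and 16 higher and 0 lower with CCF642.

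**Figure D3:**
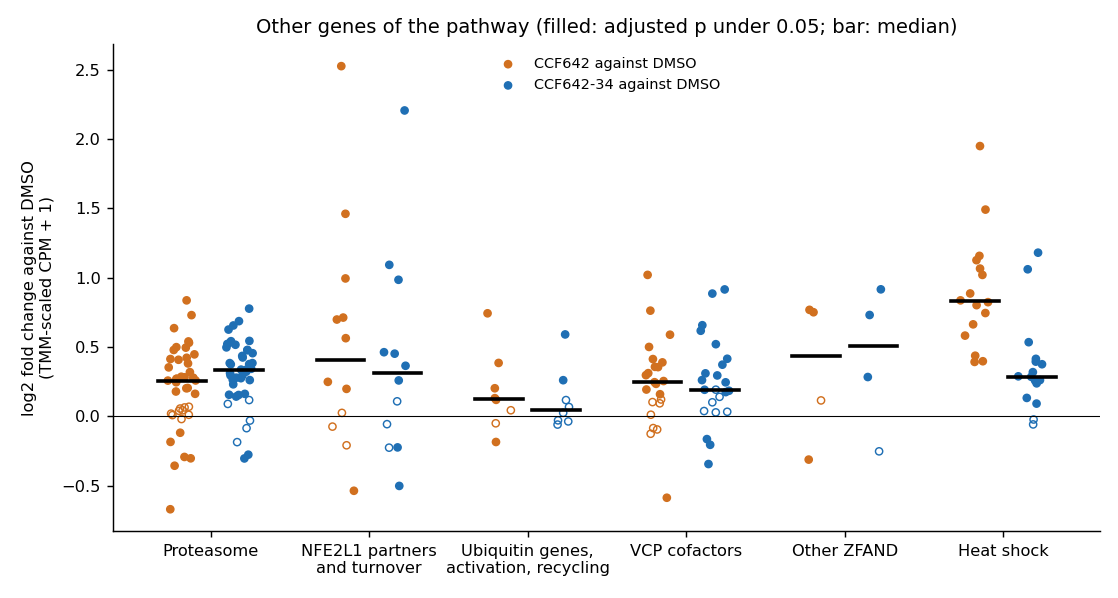
log2 fold changes against DMSO of each gene in the 6 lists, CCF642 on the left and CCF642-34 on the right of each pair. Filled points have a limma adjusted p under 0.05, open points do not, and bars are medians, which in the heat shock list are 0.83 with CCF642 and 0.29 with CCF642-34 and in the proteasome list 0.26 and 0.34.

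In the direct comparison, where 15.9% of all genes were called higher with CCF642-34 and 17.4% lower, the lists differed. Of the heat shock genes 15 of 16 were lower with CCF642-34 than with CCF642 (median difference -0.49) and 0 were higher. In the list of NFE2L1 partners and turnover factors, 7 of 12 were lower and 0 higher (median -0.13) in limma. Of its small MAF genes MAFF was lower (-0.32), while MAFK (0.035) was not called. Of the proteasome genes 16 of 42 were higher with CCF642-34 and 1 was lower (median 0.10). This count fell to 7 without CCF642-34 replicate 1, to 9 without CCF642-34 replicate 2 and to 10 without CCF642 replicate 2, and over all alternatives it ran from 1, in a gene-wise linear model, to 25, with scaling by library size alone. That model also called 1 gene of the NFE2L1 partners and turnover factors lower, and 12 of the heat shock genes. The other lists showed no such lean in limma. Of 8 ubiquitin genes 2 were higher with CCF642-34 and 4 lower, of 23 VCP cofactors 3 and 3, and of 4 other ZFAND genes 1 and 0. Against this background ZFAND2A and ZFAND5 were lower with CCF642-34, and NFE2L1 and UBB were not called.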

How the data were processed

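RNA of MM1.S cells was sequenced after 6 h in 3 groups of 2 libraries. The authors deposited CPM values for 11048 gene symbols per library, that is, reads on a gene scaled to the library total, with no log transformation. The unit was read from the values, all of which (100%, within 0.05 reads) were whole multiples of the share of 1 read. The submitters' processing notes name STAR, edgeR 3.24.3, limma 3.38.3 and hg19, while the counting tool, its use of strand and the gene annotation are not given in the sources used here. A joint table with identical values was not used.

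The CPM values were scaled with TMM factors (0.957 to 1.05; edgeR 4.0.16), a pseudocount of 1 was added, and log2 values of all 11048 genes were fitted with limma 3.58.1 (R 4.3.3; trend, eBayes) on the 3 groups together, without a replicate block, leaving 3 residual degrees of freedom and a prior of 42.9. Fold changes on this scale understate those of genes with low values. Tests were two-sided, and within each of the 3 comparisons the Benjamini-Hochberg adjustment ran over all genes. The 95% confidence intervals are those of limma, not adjusted for the number of genes. The scripts were tested on simulated data. The whole reads recovered gave the library totals, counting errors and replicate comparison, and served count tests used as alternatives (edgeR's quasi-likelihood test, DESeq2 1.42.0, limma-voom), which called 6440, 5649 and 6511 genes with CCF642-34, against 6362 in limma on log2 values. Other alternatives were scaling by DESeq2's size factors or by library size alone, pseudocounts of 0.1 and 4, a mean CPM of at least 5, a gene-wise linear model, 2 groups in the fit, a replicate block, and fits without each library.

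The members and the gene lists were chosen with earlier results of these data known. The text names all members, among each list the 2 largest called increases and decreases with each compound (not all of which are named), and for members changed at least 2-fold the 3 genes of nearest profile. RSC1A1, which shares exons with DDI2, was named after the values were seen, as were HSPE1 and HSPA1B. Some genes of the lists are not reported here and were left out of the counts. Of the list genes, DDI1, SEM1, UFD1, UBXN10, FAF1, SELENOS, HSPA1A and CRYAB were not among the listed symbols. Gene models came from GENCODE 29 (GRCh38) and promoters, from 250 bases before to 50 after a start, from RefSeq (GRCh38.p14). Both differ from the build named in the notes and were used for positions, lengths and sequences only.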

Additional observations from a re-analysis of the deposited data

How the results depend on the processing

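Against DMSO, the number of members called with CCF642-34 or CCF642 stayed at 8 or 9 under every alternative. Leaving out 1 library at a time gave 8 to 9 members with CCF642-34, 9 with CCF642 and 2 to 3 between the compounds. A gene-wise linear model, which does not share variance across genes, called 0 members between the compounds, although 4 had an unadjusted p under 0.05 in it, and edgeR's quasi-likelihood test called 3. Against DMSO the gene-wise model called 8 members with each compound, without DDI2. Calls for NGLY1 and DDI2 that depended on single libraries or on scaling are given with those genes, and scaling by library size alone added VCP to the calls between the compounds (0.091, limma adjusted p = 0.0379, over alternatives from 0.0379 to 0.631). Scaling by library size alone changed the sign of a called value of UCHL5, a proteasome-bound deubiquitinase, from 0.12 to -0.013 with CCF642. The other changed signs among the members and the genes chosen by the naming rule belong to differences that were not called. UBA6 with CCF642-34 against DMSO had -0.021 with that scaling and -0.011 to 0.15 with 1 library left out. Between the compounds these were NPLOC4 (0.021) and ZFAND2B (0.026) with scaling by library size alone, and NFE2L1 with DESeq2's size factors (-0.0063) and the DESeq2 Wald test (-0.0068). With 1 library left out, the difference ran from -0.042 to 0.046 for NFE2L1, from -0.14 to 0.30 for DDI2 and from -0.10 to 0.065 for ZFAND2B. The causes were not tested.

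With the replicate number as a block, 9 members were called with CCF642-34, 9 with CCF642 and 3 between the compounds, as without it, and over all genes 6422, 7014 and 3802 were called, against 6362, 6974 and 3685. The labels do not say that equal numbers share a culture. The correlation of replicate differences between groups, over 9841 genes, was -0.035, -0.059 and 0.094, so the numbers were not taken as pairs. With 2 libraries per group, no test for outlying libraries was possible, and the lowest reads of a member (253) limit the precision for DDI2. The DESeq2 Wald test called 2840 genes between the compounds and the gene-wise model 739, against 3685.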
